A study of Mus musculus with 3 samples.

Results

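The cytosolic ribosomal protein genes are the genes whose products make up the large (60S) and small (40S) subunits of the ribosome in the cytoplasm. They were taken by symbol: Rpl or Rps followed by a number with an optional letter or final l, and Rpsa, Rplp0, Rplp1 and Rplp2, leaving out pseudogene names ending in -ps and the Rps6k kinases. This gave 81 of the 32285 genes in the deposited matrices, 50 of the 60S and 31 of the 40S subunit. The data are single-cell RNA-seq of mouse blastoids, which are embryo-like aggregates grown from stem cells. All 3 libraries, titled NrESC_Type_I, NrESC_Type_II and NrESC_Type_III and here called Type I, Type II and Type III, came from E14 embryonic stem cells grown with LIF at 1000 U/mL and with 10 µM of T0901317, an activator of liver X receptors. For all 3 the labels give seeding at about 5 cells per microwell in medium with rhFGF4 at 12.5 ng/mL, heparin at 0.5 µg/mL, the GSK3 inhibitor CHIR99021 at 3 µM and the ROCK inhibitor Y-27632 at 2 µM. That medium was later replaced by one with 5 ng/mL BMP4 and 0.5 µM A83-01 beside the FGF4, heparin and CHIR99021. Blastoids were picked by hand on day 5 and digested for 30 min. The labels give no difference between the types and no untreated control, and each type has 1 library.

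Each ribosome holds 1 copy of nearly every ribosomal protein, so cells make these proteins in balanced amounts, and their mRNAs are among the most abundant in growing cells. The mRNAs start with a run of pyrimidines, which ties their translation to growth signals through mTOR and the binding protein LARP1. A few ribosomal proteins have a second gene, such as Rpl10l, a retrogene known from male germ cells, Rpl39l, known from testis and stem cells, Rpl3l, known from muscle, and Rps27l, a target of p53. The blastocyst that blastoids resemble has 3 lineages: the epiblast, which forms the embryo proper, the primitive endoderm (PrE), which forms yolk sac endoderm, and the trophectoderm (TE), which forms the placenta.

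The coding sequences of 2 paralog pairs are shown because the second gene of each pair departs from the other members below. Rpl39 and Rpl39l have coding sequences of 156 bases and match at 133 of them (85.3%). Rps27 and Rps27l have coding sequences of 255 bases and match at 194 (76.1%). Both pairs are printed 5′ to 3′ from the GENCODE transcripts of build GRCm38, with the bases that differ within the pair in capitals.
Rpl39: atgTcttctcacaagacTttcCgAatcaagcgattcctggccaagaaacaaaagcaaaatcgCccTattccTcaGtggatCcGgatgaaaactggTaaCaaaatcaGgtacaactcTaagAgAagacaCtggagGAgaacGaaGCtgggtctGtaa
Rpl39l: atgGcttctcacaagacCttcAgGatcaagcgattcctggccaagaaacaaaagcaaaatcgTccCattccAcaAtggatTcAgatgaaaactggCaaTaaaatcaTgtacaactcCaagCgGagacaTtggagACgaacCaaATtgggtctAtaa
Rps27: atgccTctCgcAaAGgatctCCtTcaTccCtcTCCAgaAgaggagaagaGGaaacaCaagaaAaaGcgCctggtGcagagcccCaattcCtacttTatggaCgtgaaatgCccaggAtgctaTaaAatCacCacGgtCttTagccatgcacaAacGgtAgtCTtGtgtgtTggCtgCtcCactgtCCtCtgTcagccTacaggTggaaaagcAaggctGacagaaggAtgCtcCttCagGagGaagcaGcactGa
Rps27l: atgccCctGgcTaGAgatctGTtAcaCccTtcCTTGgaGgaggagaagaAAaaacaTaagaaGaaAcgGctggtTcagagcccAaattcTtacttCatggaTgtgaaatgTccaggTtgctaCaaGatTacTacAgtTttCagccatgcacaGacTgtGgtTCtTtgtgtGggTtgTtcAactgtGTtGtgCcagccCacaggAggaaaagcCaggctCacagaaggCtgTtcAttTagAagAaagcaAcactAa

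Some sequence words were more frequent in the promoters of the members than in all promoters. RefSeq promoters (GRCm38.p6, from 250 bases before to 50 after the start) were matched for 61 of the 81 members, with 73 start sites. The pyrimidine runs CTTTCC or CTTTTC were sought on the strand that reads like the mRNA, from 10 bases before to 15 after the start. They were found in 19.2% of the member promoters and in 1.86% of all 32851 promoters. The ETS-type word CTTCCG, on either strand of the whole promoter, was found in 61.6% of member promoters and 16.9% of all. The windows from 30 bases before the start are shown for 3 members with such a run (in capitals) and for the 2 paralogs without one at the start shown, since the paralogs are the members that stand apart below.
Rpl28, chr7:4792935-4792984, plus strand: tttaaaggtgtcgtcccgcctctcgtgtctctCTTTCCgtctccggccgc
Rps27, chr3:90213629-90213678, minus strand: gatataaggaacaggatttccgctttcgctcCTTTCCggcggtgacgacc
Rpl39l, chr16:10170198-10170247, plus strand: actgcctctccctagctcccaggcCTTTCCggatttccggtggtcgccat
Rps27l, chr9:66946056-66946105, plus strand: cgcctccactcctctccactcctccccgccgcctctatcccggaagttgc
Rpl10l, chr12:66284382-66284431, minus strand: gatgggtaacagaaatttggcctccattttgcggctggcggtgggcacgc

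The values are UMI counts, that is, counts of tagged mRNA molecules read near their 3′ ends. Barcodes with at least 10000 UMIs and at most 20% mitochondrial (mt-) UMIs were used, which left 1405 of 6813 barcodes of Type I, 1992 of 9265 of Type II and 272 of 2310 of Type III, holding between 82.2% and 86.9% of each library's UMIs. Median UMIs per kept barcode were 52224, 41491 and 71540. Barcodes were assigned by UMIs scaled to a total of 1000000 per barcode or sum (CPM): PrE with Gata6, Sox17 and Gata4 together at 100 CPM or more, else TE with Krt8, Krt18 and Krt19 at 800 or more, else epiblast with Pou5f1 at 150 or more. At 10000 UMIs 1 UMI is 100 CPM, so in a shallow barcode a single endoderm UMI meets the first rule. The PrE had 673, 877 and 63 barcodes in Types I, II and III, the TE 242, 330 and 72, and the epiblast 351, 587 and 121, while 139, 198 and 16 met no rule. Of the PrE barcodes, 76.2% to 78.8% also met the rule of another state, and no doublet caller was run. Which other rule they met was not counted. In the PrE sums of Types I, II and III Krt8 was at 539, 577 and 752 CPM and Krt18 at 881, 1005 and 989. Pou5f1 was at 28.5, 35.6 and 99.2 CPM there. Types I and II shared 1 barcode and the other pairs 0. Markers outside the rules went with the names: 9 epiblast markers summed to 1729 to 2275 CPM in the epiblast, 122 to 180 in the PrE and 230 to 466 in the TE, 9 PrE markers to 9631 to 12117 CPM in the PrE, and 10 TE markers to 510 to 835 CPM in the TE against 41.8 to 110 elsewhere. PrE markers also summed to 568 CPM in the TE of Type III, to 2964 in that of Type II and to 1041 to 1349 in the epiblast, where Apoe made up most of it. Within the TE sum Cdx2 was at 15.3 and 10.4 CPM in the PrE of Types I and II against 13.4 and 8.39 in the TE, and Eomes was also higher in the PrE than in the TE. The 6 markers of cells like those of the early cleavage embryo summed to 244 CPM in the PrE of Type III, 0.149 in that of Type I and at most 3.21 in the TE and epiblast.

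The ribosomal protein genes took the highest share of UMIs in the epiblast and the lowest in the PrE. In the epiblast the 81 genes held 40.4%, 39.5% and 39.0% of all UMIs in Types I, II and III (39.6% ± 0.695, SD, n = 3). In the TE they held 33.1%, 32.3% and 30.1% (31.9% ± 1.53), and in the PrE 29.0%, 28.5% and 28.3% (28.6% ± 0.356). No library of one state reached the range of another. The difference was -11.0 percentage points between the PrE and the epiblast (SD 0.340 over the 3 libraries), -7.75 between the TE and the epiblast (SD 0.957) and -3.25 between the PrE and the TE (SD 1.21), each below 0 in 3 of 3 libraries. The 2-sided exact permutation test over the 3 against 3 sums did not pair the states of a library. This permutation test gave p = 0.1 for each difference, the smallest p that it allows without pairing. The TE of Type III, with the lowest PrE marker sum, was also the TE with the lowest ribosomal protein share, and the part of PrE RNA in the TE values was not tested. A share cannot separate fewer ribosomal protein mRNAs per cell from more of other mRNAs.

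**Figure D1:**
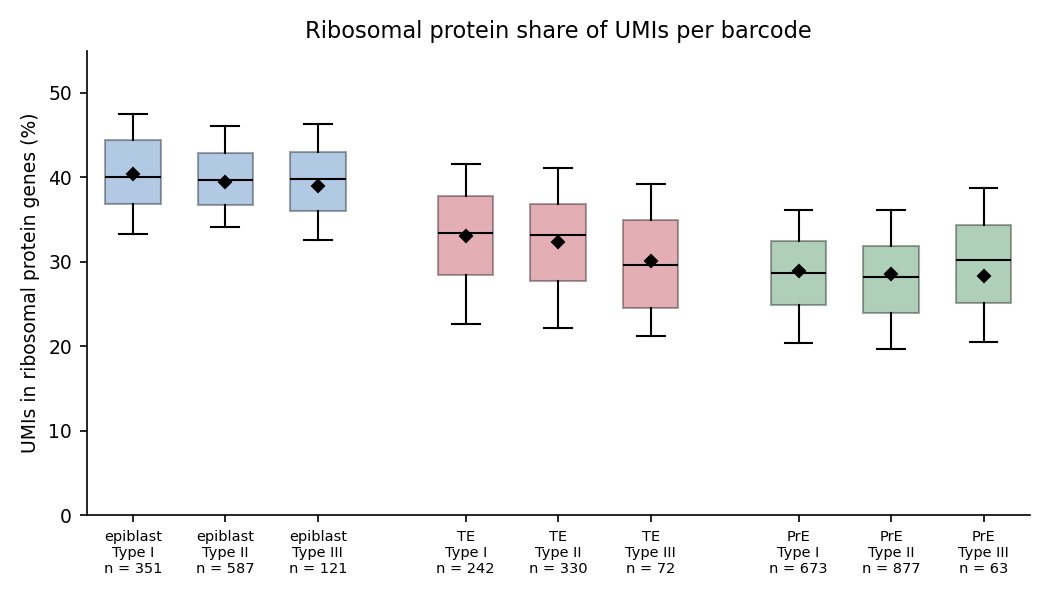
Percent of each barcode's UMIs in the 81 ribosomal protein genes (vertical axis) by state and library, with n barcodes; boxes show quartiles and median, whiskers the 10th and 90th percentiles, diamonds the share in the summed counts. All 3 epiblast libraries lie near 40% and the PrE libraries near 28%, with wide overlap between single barcodes.

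Single barcodes overlapped. The quartiles of epiblast barcodes lay between 36.0% and 44.4% over the libraries, those of TE barcodes between 24.5% and 37.8%, and those of PrE barcodes between 23.9% and 34.4%. Barcodes that met no state rule were at 37.3%, 37.8% and 36.7% in their sums. Mitochondrial UMIs moved against the share between the PrE and the epiblast. Their median was 4.56% to 5.45% in the PrE and 3.60% to 4.24% in the epiblast. In the TE, whose ribosomal protein share was also below that of the epiblast, it was 3.55% to 3.87%. Across barcodes of one library and state both shares had Pearson's r between -0.63 and -0.25. This r is a description, since both are parts of one total. With mt- UMIs left out of the total, the difference between the PrE and the epiblast was -11.5 to -10.9 points. In barcodes that met only 1 state's rule it was -9.32 points, and that between the PrE and the TE was -0.98.

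The same few genes led in every state. Rpl13 of the large subunit was highest in all 9 sums, with 12424, 13127 and 11413 CPM in the epiblast of Types I, II and III, 9448, 10242 and 8167 in the TE and 8249, 8853 and 7881 in the PrE. It was followed by Rpl32 and Rps20 in mean CPM over the 9 sums, and Rpl23 was also among the 5 highest. The 10 highest genes held 21.1% to 23.6% of the ribosomal protein UMIs, and 75 or 76 of the 81 genes exceeded 1000 CPM. Large-subunit genes made up 55.8% to 56.7% of these UMIs in every sum. These levels are UMIs at 3′ ends and are not divided by transcript length.

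Relative to the other genes, nearly all ribosomal protein genes were lower in the PrE than in the epiblast. Counts were summed per library and state and fitted with edgeR's quasi-likelihood test over 13502 genes with TMM scaling, the library as a block and Benjamini-Hochberg adjustment at 0.05. Of the 80 members that passed the low-count filter, 79 fell and 0 rose, where 36.1% of all genes tested fell and 38.2% rose. At an unadjusted p under 0.05 the number higher was also 0, as it was by DESeq2. The median log2 fold change of the members was -0.64, which is 64.0% of the epiblast level, and that of all genes tested was 0.033. Of the members, 70 of 80 lay within 0.3 of their median, against 3238 of the 13502 genes around theirs. In plain CPM 69 of the 81 members were lower in all 3 PrE sums than in any epiblast sum, 1 was higher and 11 overlapped. Such a count was not made over all genes, whose median log2 fold change without TMM scaling was 0.17. Large- and small-subunit members had medians of -0.63 and -0.67.

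After Rpl10l and Rpl39l, described below, the deepest fall was that of Rps23, a protein of the decoding centre. It was at 6888, 6823 and 6962 CPM in the epiblast and 3709.7, 3891 and 3939.6 CPM in the PrE, a log2 fold change of -0.98 (SE 0.06, edgeR adjusted p = 3.56e-07), and the groups did not overlap. Rpl8, which lies at the peptidyl transferase centre, fell by 0.93 and Rps10 of the small subunit's head by 0.89 on the log2 scale. The smallest falls were those of Rpl19 and Rps24, each by 0.22, Rpl23 by 0.26 and Rpl15 by 0.31. The call of Rpl23 was lost with no library block (adjusted p = 0.0511). Rps24, a small-subunit protein needed for rRNA processing, was at 6216, 6003 and 5419.7 CPM in the epiblast and 5774, 5829 and 5059.8 in the PrE, so the groups overlapped although each library was lower in the PrE. Its adjusted p of 0.0051 became 0.0573 without Type I, 0.0604 without Type II, 0.0932 in barcodes that met 1 rule and 0.149 with no library block. Rpl19 was lower in the PrE in Types I and II but not in Type III, with 4438, 4531 and 4149 CPM in the epiblast and 4045, 4182 and 4162 in the PrE. For Rpl19 the adjusted p of 0.014 became 0.116 without Type I, 0.128 without Type II, 0.131 with plain totals, 0.0618 with no filter and 0.0825 with no block. The only member tested that did not fall was the paralog Rps27l.

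**Figure D2:**
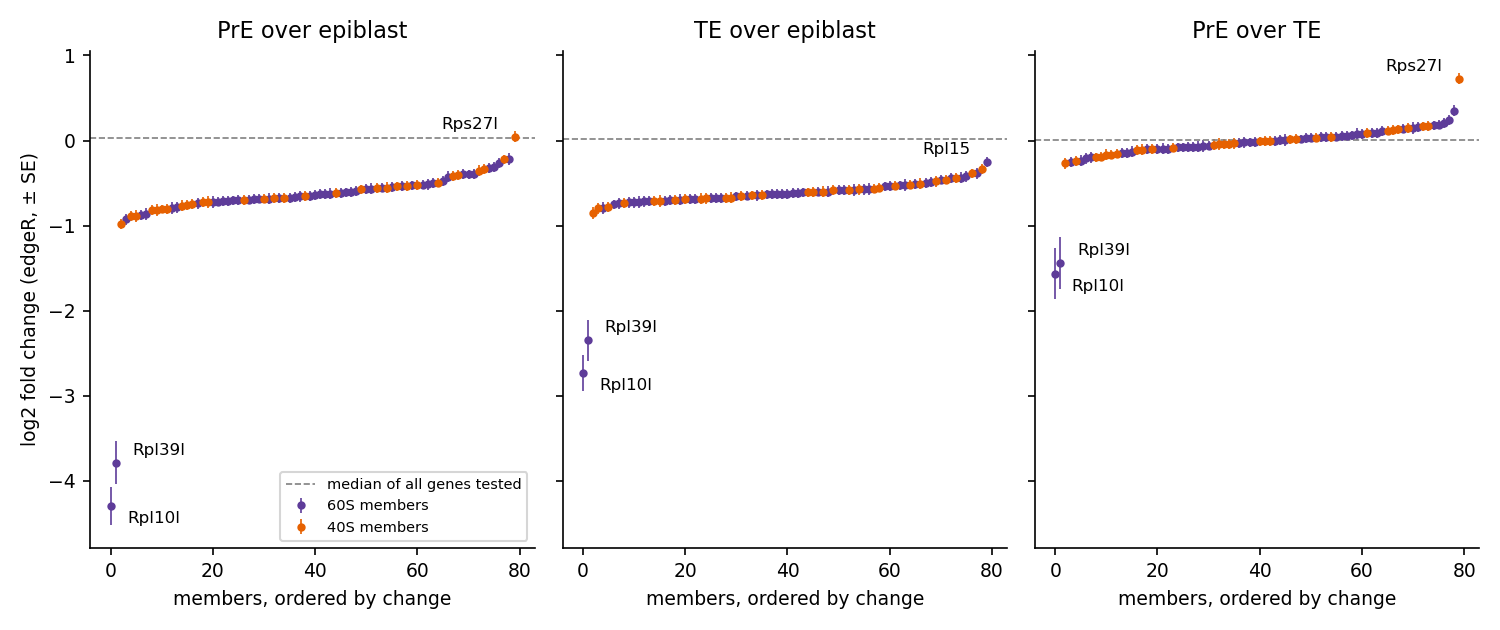
log2 fold change (vertical axis, edgeR, bars ± SE) of the 80 members tested, each panel ordered by change, with 60S members in purple and 40S members in orange; the dashed line is the median of all genes tested. Most members form a flat line near -0.64 in PrE over epiblast, near -0.63 in TE over epiblast and near 0 in PrE over TE, with Rpl10l and Rpl39l far below.

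In the TE, too, the ribosomal protein genes were lower than in the epiblast. All 80 members tested fell and 0 rose (also 0 at an unadjusted p under 0.05 and by DESeq2), where 28.3% of all genes tested fell and 30.8% rose. The median was -0.63 against 0.022 over all genes, and 77 of 80 members lay within 0.3 of it. In plain CPM 67 of the 81 members were lower in all 3 TE sums, 0 were higher and 14 overlapped. Over all genes this was not counted, and their median without TMM scaling was 0.31. Leaving Rpl10l and Rpl39l aside, the lowest were Rps26, at the mRNA exit channel (-0.85), Rpl7a (-0.80) and Rps18 (-0.80). Rps26 was at 6626, 5911 and 5863 CPM in the epiblast and 4777, 4179 and 3609 in the TE, with no overlap. The epiblast sums are the same in both comparisons, so their members' falls are not independent.

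The least lowered in the TE were Rpl15 (-0.25), Rps24 (-0.34), Rpl29 (-0.38), Rps14 (-0.39) and Rpl5 (-0.42), which carries an rRNA of the large subunit. Rpl15, a large-subunit protein, was at 3513, 3799 and 3519 CPM in the epiblast and 3686, 3909.6 and 3547 in the TE. In CPM it was thus higher in the TE in 3 of 3 libraries, and its log2 fold change was 0.041 with plain totals. Its fall exists only relative to the other genes, and the adjusted p of 0.003 became 0.0534 without Type II. With plain totals the median of all genes moved from 0.022 to 0.31 and that of the members to -0.33. On that scale 77 members were still called lower and 0 higher, where 2216 and 6358 of the 13502 genes were. The falls of Rps24 and Rpl29 were lost with plain totals, at -0.045 (adjusted p = 0.255) and -0.092 (adjusted p = 0.135). That of Rps24 was also lost with no block (adjusted p = 0.0506) and in barcodes of 10000 to 40000 UMIs (adjusted p = 0.126). Without the library block the calls of Rpl29 in the PrE (adjusted p = 1.37e-05 with it) and in the TE were also lost, at -0.62 (adjusted p = 0.146) and -0.41 (adjusted p = 0.363), while the sizes stayed near -0.62 and -0.38.

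Between the PrE and the TE the members moved little as a group, and the split of their calls depended on the scaling. With TMM, 9 of 80 members rose in the PrE and 15 fell, where 30.9% of all genes tested rose and 29.8% fell, and the median was -0.012. With plain totals 3 were higher and 59 lower, where 3362 and 5157 of the 13502 genes were. The median was then -0.17 for the members and -0.15 for all genes. In CPM 64 of the 81 members were lower in the PrE in all 3 libraries and 3 were higher, but only 36 were lower without overlap. These CPM counts were not made over all genes. Without Type III 12 members were called higher and 41 lower, where 4487 and 4390 of 14445 genes were. Without Type I the calls were 5 higher and 2 lower, where 3265 and 2780 of 13183 genes were called. Rps27l (0.73) and Rpl19 (0.35) were the highest, and besides Rpl10l and Rpl39l the lowest were Rps23 (-0.27) and Rpl3 (-0.25). Rpl19 was at 3696, 3852 and 3279.6 CPM in the TE and 4045, 4182 and 4162 in the PrE, with no overlap and an adjusted p of 0.00134, which became 0.401 in barcodes of 10000 to 40000 UMIs. The calls of Rps23 and Rpl3 were lost without Type I, without Type II and in barcodes that met 1 rule. Those of Rpl23 (0.25), Rpl41 (0.20) and the stalk protein Rplp1 (0.19), the other members with the highest values here, were lost without Type II, with no block, in barcodes of 10000 to 40000 UMIs and with barcodes thinned. Rpl23 was at 0.0046 in barcodes of 10000 to 40000 UMIs. With plain totals the calls of Rpl41 (0.051) and Rplp1 (0.032) were lost too, and that of Rpl41 also without Type I and in barcodes that met 1 rule.

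To see which members departed from the others, the fit was repeated with each sum's ribosomal protein UMIs as its total. In PrE over epiblast 24 members gained and 36 lost share, together 60 of 80, where 80.1% of all genes tested were called on this scale. In TE over epiblast 20 gained and 27 lost (background 73.6%), and in PrE over TE again 20 and 27 (background 59.2%). On this scale the median log2 fold change of all genes tested was 0.64 in PrE over epiblast and 0.62 in TE over epiblast. The backgrounds of these comparisons thus include a shift of the other genes against the member total. Apart from the paralogs the shifts of the members were small. Within the ribosomal protein total Rps24 and Rpl19 gained most in the PrE (each 0.39 on the log2 scale), followed by Rpl23 (0.34), and Rps23 (-0.37) and Rpl8 (-0.32) lost most after Rpl10l and Rpl39l. In the TE Rpl15 gained most (0.36). Without the library block the called members were 24, 13 and 16 in the 3 comparisons.

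Rpl10l and Rpl39l were at low levels and were found mainly in the epiblast. Rpl10l, a gene of 1 exon at chr12:66283379-66284401 (GRCm38), was at 11.2, 10.2 and 14.5 CPM in the epiblast of Types I, II and III. In the TE it was at 1.81, 1.48 and 4.01 CPM and in the PrE at 0.67, 0.39 and 1.30 CPM, so no group overlapped another. Its log2 fold change was -4.30 in the PrE (SE 0.22, edgeR adjusted p = 1.11e-07), -2.73 in the TE (SE 0.21, adjusted p = 4.26e-06) and -1.57 between them (adjusted p = 0.00128). The last call was lost in barcodes that met 1 rule (-0.89, adjusted p = 0.0533) and in barcodes of 10000 to 40000 UMIs (-0.75, adjusted p = 0.46).

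Rpl39l, at chr16:10170226-10174911 with 3 exons, encodes a close copy of the protein that lines the exit tunnel. It was at 26.0, 29.7 and 31.5 CPM in the epiblast, 4.21, 5.90 and 14.1 in the TE and 1.51, 2.03 and 5.53 in the PrE. It fell by 3.79 (SE 0.25, edgeR adjusted p = 5.39e-07) in the PrE and by 2.35 (SE 0.24, adjusted p = 2.46e-05) in the TE on the log2 scale. The groups were apart in both, and Type III had the highest level in each state. The 9 epiblast markers outside the state rules moved with it: in the PrE they summed to 122 CPM in Type I and 180 in Type III, the lowest and the highest library, and in the TE to 230 in Type I and 466 in Type III. The part of epiblast RNA or cells in these PrE and TE levels was not tested.

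The shares of barcodes told the same order. With every barcode thinned to 10000 UMIs, Rpl39l had a UMI in 16.2%, 20.3% and 18.2% of epiblast barcodes (exact 95% interval 12.5% to 20.5% in Type I). In the PrE the share was 1.34%, 1.60% and 6.35%, the last being 4 of 63 barcodes with an interval of 1.76% to 15.5%. In the TE it was 4.13%, 3.94% and 13.9%. Without thinning the epiblast shares were 41.3%, 41.4% and 40.5% and the PrE shares 3.86%, 4.68% and 11.1%. Rpl10l was found in 10.8%, 9.54% and 9.92% of thinned epiblast barcodes and in 0.446%, 0.342% and 1.59% of PrE barcodes (29.3%, 24.2% and 30.6%, and 3.57%, 1.60% and 11.1%, without thinning). Neither gene had a UMI in all epiblast barcodes of a library, but at these levels a barcode without a UMI does not show absence. The intervals cover counting error only.

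Both paralogs remained minor beside their partners. Rpl10 was at 2160.0, 2212 and 2581 CPM in the epiblast, and Rpl10l made up 0.516%, 0.460% and 0.560% of the pair there. Rpl39l made up 0.441%, 0.626% and 0.573% of its pair in the epiblast and 0.0312%, 0.0504% and 0.122% in the PrE. Rpl39 itself was at 5869, 4722 and 5463 CPM in the epiblast and 4842, 4022 and 4531 in the PrE, a fall of 0.40 on the log2 scale (adjusted p = 9.69e-05), and its groups overlapped. Rpl3l was the only member that the low-count filter left out. It had 16, 15 and 2 UMIs in the epiblast of Types I, II and III, 2, 3 and 1 in the TE and 2, 6 and 0 in the PrE, against 73723 UMIs of Rpl3 in the epiblast of Type I.

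Rps27l stood apart from the other members. This small-subunit gene with 4 exons at chr9:66946086-66949516 was at 917, 914 and 831 CPM in the epiblast, 713, 717 and 609.7 in the TE and 1065, 1030.0 and 933 in the PrE. The PrE was the highest in all 3 libraries and the TE the lowest, with no overlap between states. Between the PrE and the TE its log2 fold change was 0.73 (SE 0.06, edgeR adjusted p = 8.85e-06), a rise that was called under each of the alternatives tried, from 0.44 in barcodes of 10000 to 40000 UMIs to 0.78. Between the PrE and the epiblast it was 0.046 (adjusted p = 0.534), and 0.18 (adjusted p = 0.00425) with plain totals. In the TE it fell by 0.68 (adjusted p = 1.61e-05). Its partner Rps27, at chr3:90212522-90213651, was at 4598, 3639 and 5055 CPM in the epiblast and 2893, 2316 and 3071 in the PrE, a fall of 0.82 (adjusted p = 1.00e-06).

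The makeup of this pair therefore changed. Rps27l was 16.6%, 20.1% and 14.1% of the pair's UMIs in the epiblast, 17.5%, 21.1% and 15.2% in the TE and 26.9%, 30.8% and 23.3% in the PrE, with exact intervals of under 1.1 points in width. The PrE exceeded the epiblast by 10.1 points (SD 0.780, n = 3) and the TE exceeded it by 0.994 points (SD 0.0937), which was 2.52 with doubled state limits and 1.95 in barcodes of 10000 to 40000 UMIs. In barcodes that met only 1 rule the PrE difference was 7.79 points. Rps27 shares its transcript end with Rps27rt and other annotated copies, so its level is uncertain, whereas 19.2% of the 50-base windows at the end of Rps27l occur elsewhere. A UMI of Rps27l was present in at least 93.1% of thinned barcodes of every state.

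**Figure D3:**
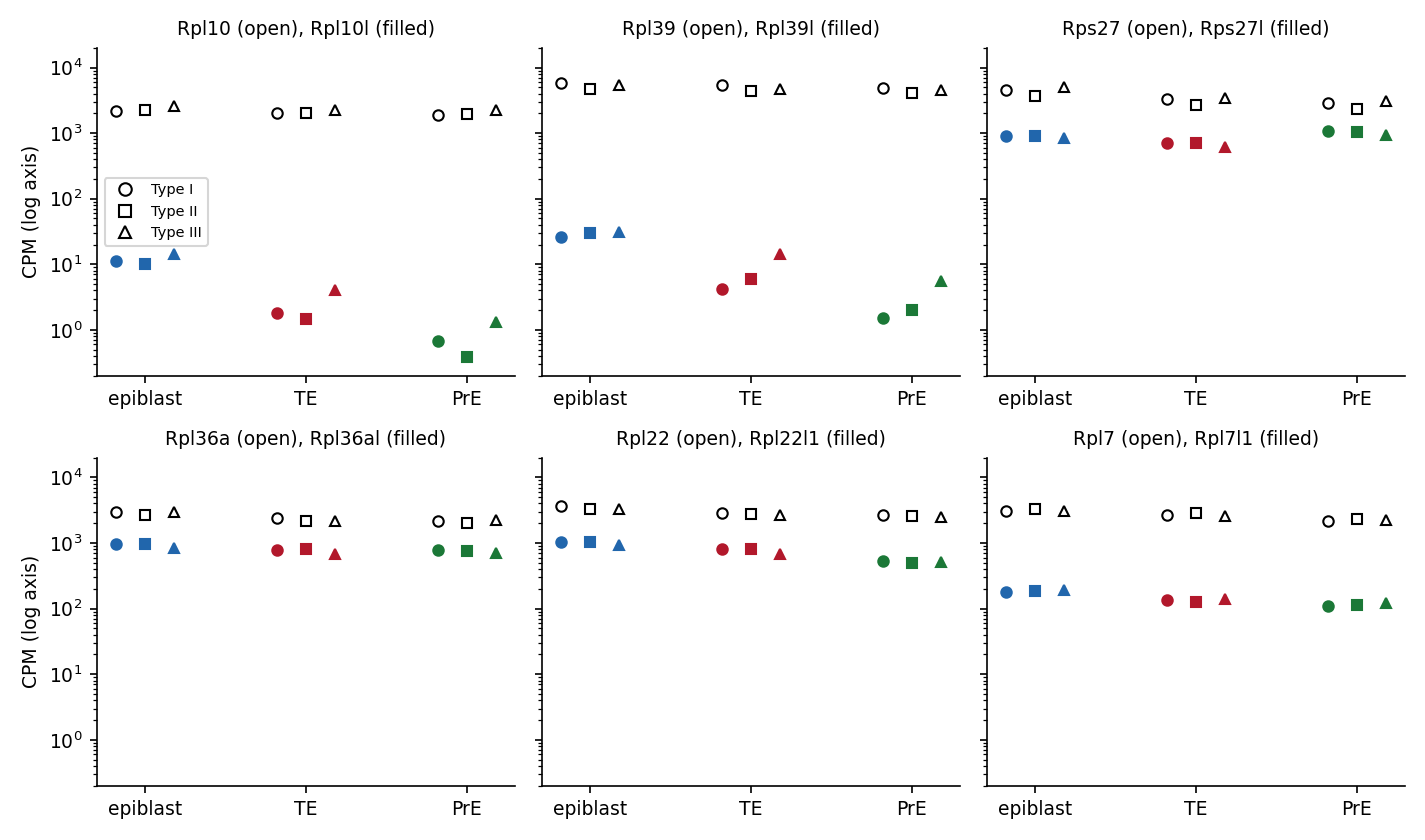
CPM (log axis) of 6 paralog pairs by state; open symbols are the first gene of each pair, filled symbols the paralog, and circles, squares and triangles are Types I, II and III. Rpl10l and Rpl39l drop from the epiblast to the TE and PrE, Rps27l is highest in the PrE, and Rpl22l1 falls more than Rpl22.

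In the other pairs the shares moved as follows. Rpl36al, an autosomal copy of the X-linked Rpl36a, made up 21.9% to 26.3% of its pair in the epiblast and 24.3% to 27.2% in the PrE, and both genes fell in the PrE (-0.42 and -0.57). Rpl22l1, a paralog of Rpl22 outside the symbol rule, was at 1022, 1049 and 923 CPM in the epiblast, 804, 823 and 682 in the TE and 533, 489 and 513 in the PrE. It fell by 1.10 in the PrE (SE 0.08, edgeR adjusted p = 1.31e-06), and Rpl22 by 0.56. Its share of the pair was 22.0%, 23.9% and 21.7% in the epiblast and 16.5%, 16.1% and 17.2% in the PrE, a difference of -5.93 points (SD 1.66), which was -9.52 in barcodes of 10000 to 40000 UMIs. Rpl7l1, a biogenesis factor related to Rpl7, fell by 0.83 in the PrE and by 0.76 in the TE.

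Within each state, the members at 50 CPM or more differed by less than 2-fold between Type I and each of Types II and III. With 1 library per type this has no replicate check and no test. A gene was counted where the ratio to Type I reached 2-fold and either library had 50 CPM or more. At that level 0 of the 78 members passed in any of the 6 comparisons. Type III was not compared with Type II in this way. In the PrE Rpl29 was at 529 CPM in Type III and 236 in Type II. Of all genes, Type II over Type I gave 0% in the PrE, 0.144% in the TE and 0% in the epiblast, and Type III over Type I gave 1.09%, 1.72% and 0.214%. Smaller differences recurred in every state, and most members with short coding sequences were higher in Type I than in the other libraries. The log2 ratio of Type II to Type I, with 10 CPM added, was -0.45, -0.48 and -0.45 for Rps28 in the PrE, TE and epiblast, -0.40, -0.46 and -0.44 for Rps29 and -0.38, -0.39 and -0.39 for Rpl38. The 26 members with the shortest coding sequence (up to 401 bases) had medians of -0.10, -0.13 and -0.13, and the 26 with the longest (over 559 bases) 0.047, 0.037 and 0.033. Of the 26 short members 22 were below 0 in each state, and Rplp1 was above 0 in all 3 states. Of the 26 long members 5, 8 and 6 were below 0. In Type III over Type I the short members had medians of -0.093, -0.18 and -0.081 and the long members 0.045, -0.065 and 0.0011. Below 0 there were 22, 24 and 23 short members and 9, 20 and 13 long members, so in the TE most of both were lower in Type III. Spearman's rho with coding length across the 78 members was 0.56, 0.55 and 0.62 for Type II over Type I and 0.42, 0.43 and 0.29 for Type III over Type I. These are descriptions only, since the members share libraries and both ratios share Type I.

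In Type III a few members were higher in every state. Rpl29 was at 737 CPM in the epiblast of Type III against 371 and 335 in Types I and II, a log2 ratio of 0.97 to Type I, with 0.88 in the TE and 0.96 in the PrE. Rps2 was at 6881 CPM against 4239.9 and 4138 in the epiblast, with ratios of 0.70, 0.74 and 0.90, and Rpl35 was at 3047 against 2281 and 2054. Rps3a1, outside the symbol rule, was higher as well (0.48 in the epiblast). Rpl29, Rps2, Rpl35 and Rps3a1 have annotated copies that match 50% to 92.3% of the windows at their transcript ends, so reads can be lost or moved between copies. Rplp0, the base of the stalk, has 0% of its windows in other transcripts and was also higher in Type III, with ratios of 0.46 in the PrE, 0.24 in the TE and 0.27 in the epiblast. Members with as many matches as Rpl29 or Rps2 did not all differ, as the plot of library ratios shows, and the part of copies in these differences was not tested.

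**Figure D4:**
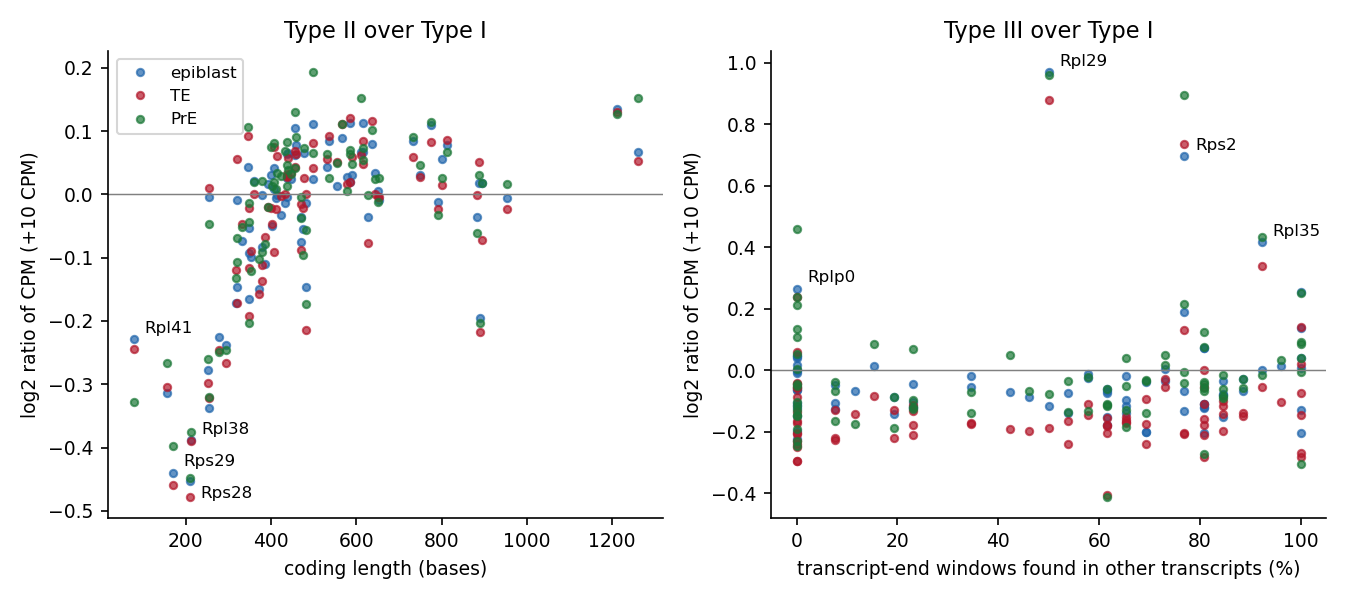
log2 ratio of CPM between libraries for each member in each state (colours); left, Type II over Type I against coding length; right, Type III over Type I against the percent of transcript-end windows found in other annotated transcripts. Most short members lie below 0 on the left, and Rpl29 and Rps2 lie at 0.70 or more on the right in all 3 states.

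Copies bear on many levels. In 54 of the 81 members at least 20% of the 50-base windows in the last 300 bases of the transcript occur in another annotated transcript, and in 10 at least 20% occur in another gene of the deposited matrices (Rpl10, Rpl9, Rps27, Rpl36a, Rpl35, Rps18, Rpl41, Rpl21, Rpl17 and Rpl29). The levels of those 10 are uncertain. No such window of Rpl10l, Rpl39l, Rpl3l or Rps24 occurs in another annotated transcript.

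Other genes of the translation machinery moved with the members to differing degrees. Of 21 translation factors and other genes known for the same pyrimidine start, 17 fell in the PrE against the epiblast and 0 rose, with a median of -0.50. Eef1g, of the elongation factor complex, was the lowest at -0.96 (SE 0.06) and Npm1, a nucleolar chaperone, followed at -0.86. Tpt1 (0.11) and Eef2 (0.058) did not pass the test. In the TE 15 of 21 fell and 0 rose, with a median of -0.39, and between the PrE and the TE 3 rose and 9 fell. Of all genes tested, 36.1% fell and 38.2% rose in the PrE against the epiblast. For the TE against the epiblast these shares were 28.3% and 30.8%, and between the PrE and the TE 30.9% rose and 29.8% fell.

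Of 35 ribosome biogenesis genes, 32 fell in the PrE and 0 rose (median -0.67), where 36.1% of all genes fell and 38.2% rose. The assembly factors Rrs1 and Heatr1 were lowest, each at -1.36; Heatr1 was at 13.8 ± 1.12 CPM in the PrE and 32.3 ± 3.13 in the epiblast (SD, n = 3). In the TE 23 fell and 1, the kinase Riok1, rose by 0.32 (median -0.38), where 28.3% of all genes fell and 30.8% rose. Against the TE, 23 of these genes were lower in the PrE and 3 higher (median -0.36), where 29.8% of all genes were lower and 30.9% higher. The helicase Ddx21 was at 94.3 ± 25.0 CPM in the PrE and 213 ± 30.9 in the TE, a log2 fold change of -1.04 (SE 0.12), while Nop10 and Dkc1 of the pseudouridylation complex rose by 0.67 and 0.61.

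Of the 12 regulators, 5 rose and 6 fell in the PrE against the epiblast, where 38.2% and 36.1% of all genes did. Mycn, a transcription factor that drives ribosomal genes, fell in the PrE (-0.83) and the TE (-1.20), and Eif4ebp1, the translation repressor under mTOR, fell in the PrE (-0.98). Myc rose in the TE, from 8.23 ± 0.569 CPM in the epiblast to 25.2 ± 5.08 (log2 fold change 1.28, SE 0.12), and was lower in the PrE than in the TE (-1.35). Tsc2, an mTOR inhibitor, rose in the PrE (0.65). The 78 mitochondrial ribosomal protein genes belong to the separate ribosome of the mitochondria. More of them fell than rose against the epiblast, and more rose than fell between the PrE and the TE. In the PrE 47 fell and 8 rose (median -0.27), where 36.1% of all genes fell and 38.2% rose. In the TE 53 fell and 2 rose (median -0.34), where 28.3% of all genes fell and 30.8% rose. Between the PrE and the TE 36 rose and 19 fell (median 0.16), where 30.9% of all genes rose and 29.8% fell. Mrps18a rose in the PrE by 1.07 against both other states, and Mrps24 was the lowest in the TE (-1.32).

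**Figure D5:**
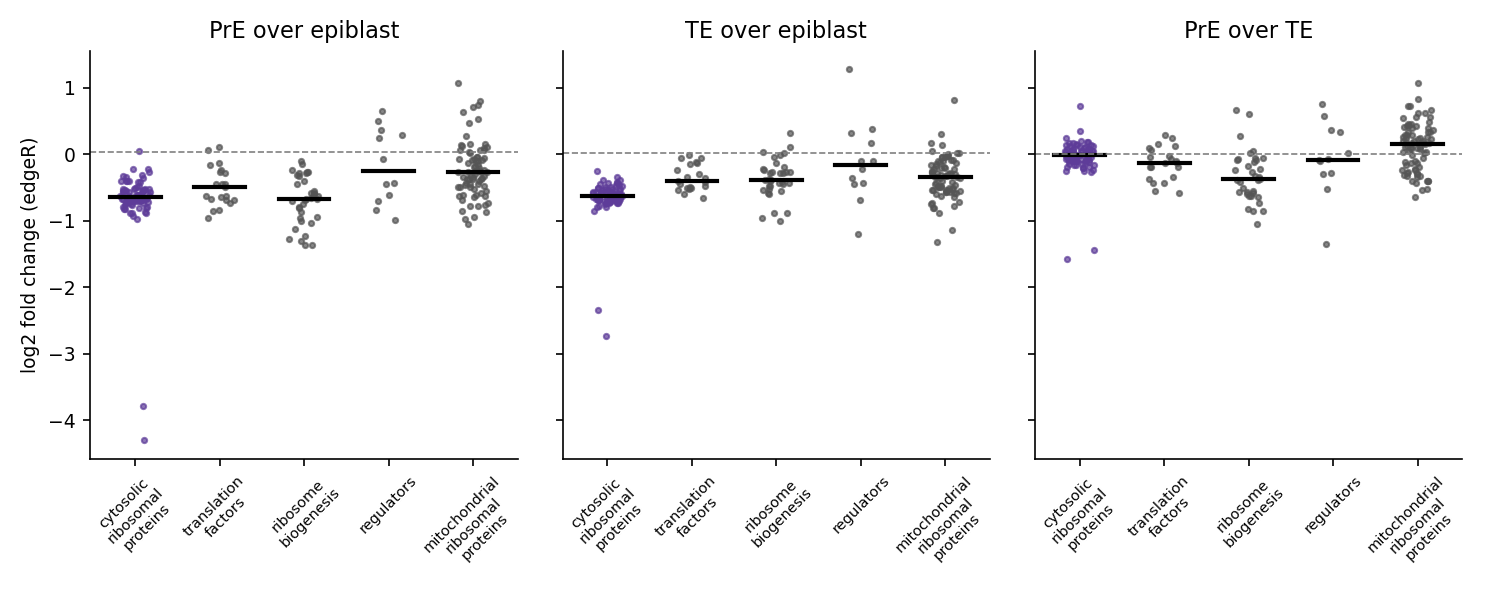
log2 fold change (edgeR) of every tested gene of the ribosomal proteins (purple) and of 4 other lists (grey) in the 3 comparisons; bars are medians and the dashed line is the median of all genes tested. Most ribosomal proteins lie in a narrow band, with Rpl10l and Rpl39l below it and Rps27l above it in PrE over epiblast and PrE over TE. Most biogenesis genes sit below 0 in PrE over TE, where mitochondrial ribosomal proteins spread on both sides.

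Some genes of ribosomal proteins or of proteins bound to the ribosome escape the symbol rule, and those named here fell in both states against the epiblast. Rps3a1 fell by 0.66 in the PrE and by 0.63 in the TE, and Rack1, which sits on the small subunit, by 0.45 and 0.51. Fau, which is also among the 21 genes with the pyrimidine start and whose product is a fusion of a ubiquitin-like protein with a ribosomal protein, fell by 0.24 in the PrE and by 0.39 in the TE. Rps27rt, a retrotransposed copy of Rps27, fell by 0.76 in both.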

How the data were processed

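The deposited values are UMI counts per gene and barcode, 1 matrix per library, made by the authors. Per the file headers the software was Cell Ranger 6.0.1; the submitters' processing notes name build mm10. The members and gene lists were chosen with earlier results of these data known. Barcodes were filtered and given a state as the report says, and counts were summed into 9 sums (3 libraries by 3 states). Named genes are the paralog pairs, the 5 highest and 5 lowest members per comparison, the 5 highest in level, and the 5 that moved most in share of the member total in each direction, with up to 4 extremes of each other list; those of the library comparisons were chosen after their values were seen.

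The sums were fitted in 1 model with edgeR 4.0.16 (filterByExpr, TMM, glmQLFit, glmQLFTest). The library is the block because the 3 states of a type are barcodes of 1 library. DESeq2 1.42.0, other scalings, filters and state limits and leaving out each library were alternatives. Nothing says that the 3 libraries are replicates. With the library as a block, the p-values of the fit measure how the differences between states vary from library to library. They do not measure the spread of levels between libraries, and no p was computed between types. Promoters and transcripts are RefSeq (GRCm38.p6) and GENCODE vM21. Depth per sum was 6146328 to 40327875 UMIs.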

Additional observations from a re-analysis of the deposited data

Results flagged for a closer look

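Of the members named in the report, Rpl41, which encodes the shortest ribosomal protein, was the only one whose libraries differed in direction between states beyond counting error. Its log2 ratio of CPM in the PrE over the TE was 0.0484 in Type I, -0.0359 in Type II and 0.141 in Type III. With 1 library per type the difference between types was not tested. Of the windows at the transcript end of Rpl41, 61.5% occur in another gene of the deposited matrices.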

How the results depend on the processing

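The median fold changes and share differences of the members in the PrE and TE against the epiblast stayed below 0 under every alternative run. The median member log2 fold change for the PrE was -0.69 with RLE scaling and with DESeq2, -0.51 with plain totals, -0.56 with no low-count filter, -0.73 at 10 CPM or more in 3 sums, -0.63 at up to 10% mt-, -0.77 in barcodes of 10000 to 40000 UMIs, -0.69 with state limits doubled, -0.62 in barcodes meeting 1 rule and -0.71 with barcodes thinned. With plain totals 1 member was called higher, where 5907 of the 13502 genes were. For the TE it was -0.33 with plain totals, -0.70 with doubled limits, -0.71 with 1 rule, -0.68 thinned, and -0.67 to -0.55 leaving out 1 library. The share differences were -11.4 (PrE) and -9.13 (TE) points with doubled limits and -9.32 (PrE) with 1 rule.

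The PrE against the TE depended on most settings. Members called higher and lower were 3 and 59 with plain totals, 18 and 8 with no filter, 2 and 4 with no replicate block, and 2 to 12 and 2 to 41 leaving out 1 library. Of all genes tested, 3362 and 5157 were so called with plain totals, 4752 and 3909 with no filter and 3824 and 3700 with no block. Leaving out 1 library gave 3000 to 4487 and 2543 to 4390 genes. The number of members higher was 1 at 10000 to 40000 UMIs and 2 thinned, and the number of members lower was 1 with 1 rule. The median was -0.17 with plain totals, 0.045 with no filter, -0.13 at 10000 to 40000 UMIs, 0.10 with 1 rule and -0.081 to 0.041 leaving out 1 library, and the share difference was -0.98 with 1 rule. With TMM from genes that are neither members nor mt-, 11 were higher and 11 lower.

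Members called on the scale of the member total numbered 24, 13 and 16 (PrE over epiblast, TE over epiblast, PrE over TE) with no replicate block, and 27, 22 and 20 at 10000 to 40000 UMIs. DESeq2 gave 31 for TE over epiblast. Leaving out 1 library gave 37 to 60, 30 to 42 and 30 to 50. The library block pairs states of the same library. Without it the members called between the PrE and the TE also moved, from 9 higher and 15 lower to 2 and 4. Apart from these, leaving out the block moved no count of calls by over 1.5 times. With plain totals Rpl15 in TE over epiblast turned to 0.041, and Rpl22, Rpl39 and Rps4x in PrE over TE, not called in the main analysis, to -0.10, -0.11 and -0.14. The Rpl7l1 share of its pair turned to 0.45 (PrE) and 0.15 (TE) points over the epiblast at 10000 to 40000 UMIs. Where counts moved with other barcodes or scaling, the cause was not tested. For single named members, 1252 alternatives gave the same call, 46 were weaker, 10 stronger and 4 reversed. Depth limits Rpl10l, Rpl39l and Rpl3l, which had 0 to 805 UMIs per sum.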
